A study of Mus musculus with 6 samples.

Results

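The gene group described here was made of 10 cathepsin genes, Ctse, Ctsd, Ctsa, Ctsb, Ctsc, Ctsh, Ctsl, Ctso, Ctss and Ctsz, found by name among the 21959 genes of the count table. Ctse was picked because it was far lower in the MPC-PTX libraries than in the MPC libraries measured here, and the other 9 were listed beside it as cathepsins of the lysosome. The differences of these 10 genes between the lines are therefore given as descriptions, with no test. RNA of 2 mouse gastric adenocarcinoma lines was sequenced in 3 libraries per line, to ask what differs once a tumour line has become resistant to paclitaxel (PTX), a drug that stabilises microtubules. MPC was the untreated control line and MPC-PTX was derived from it by repeated PTX treatment, for which the labels give over 30 cycles. Both lines carry the genotype CDH1-/-;Trp53-/-. By the methods of the study, where the lines are named MTC and MTC-R, they go back to gastric organoids of C57BL/6 J mice with floxed Trp53 and Cdh1 and the tamoxifen-inducible Mist1-CreER, in which Mist1 drives Cre. Tamoxifen was given to the organoids, a tumour they formed under the skin of a nude mouse gave the parent line, and both lines went through single-clone selection. The comparison is thus one of a clone with another clone, and the labels state neither whether the 3 replicates were separate cultures nor whether PTX was present at harvest. All 6 libraries carry the same batch label.

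Cathepsins are proteases that work mostly in the acidic endosome and lysosome. Ctsd and Ctse are aspartic proteases of the pepsin fold, Ctsa is a serine carboxypeptidase, and Ctsb, Ctsc, Ctsh, Ctsl, Ctso, Ctss and Ctsz are papain-like cysteine proteases. They are made as inactive precursors, tagged with mannose 6-phosphate, carried to the lysosome and activated there by removal of a propeptide. Cathepsin E departs from this pattern, since it is found in endosomes, the endoplasmic reticulum and the cell surface of a few cell types, surface mucous cells of the stomach among them, while cathepsins D, B and L are made by nearly every cell.

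The total was between 16574580 and 23148182 counts per library. Of 11795 genes with enough counts to be tested, 14.1% were called higher and 15.6% lower in MPC-PTX at an adjusted p below 0.05, and the median log2 fold change of all tested genes was 0.04. The targeted genes still gave reads in both lines, with 2217 to 3068 counts for Cdh1 and 63 to 142 for Trp53 per library; a count per gene is silent on the exons the reads cover. MPC replicate 3 stood apart from MPC replicate 1, with log2 ratios that followed the GC content of the genes (Spearman correlation -0.55 across 11776 genes).

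Ctse (chr1:131638306-131675505, plus strand, GRCm38) went from one of the better expressed cathepsin genes of MPC cells to a trace in MPC-PTX cells. It had 4387, 6009 and 5850 counts in the MPC libraries and 30, 29 and 32 in the MPC-PTX libraries. As CPM, the unit that divides each count by the scaled total of its library, these were 233, 310 and 281 in MPC and 1.28, 1.31 and 1.90 in MPC-PTX. The lines did not overlap, and the 3 MPC-PTX libraries were all above 0, so a low level of Ctse reads persisted in each of them. Mean CPM was 275 ± 38.8 (SD, n = 3) in MPC and 1.5 ± 0.35 in MPC-PTX, a 184-fold difference. The log2 fold change from the fit over all genes was -7.54 (standard error 0.19), and 10 of the 11795 tested genes had a lower one. It lay between -7.72 and -7.44 under the 13 other settings tried. In libraries made from whole cultures, fewer cells that express a gene and less RNA of it per cell cannot be told apart.

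Ctsd (chr7:142375911-142388038, minus strand), the main aspartic protease of the lysosome and the nearest relative of Ctse in the group, was at like levels in both lines. Its 3739, 3715 and 3456 counts in MPC and 4461, 4175 and 3079 in MPC-PTX came to 199, 192 and 166 CPM against 191, 188 and 183 CPM. The lines overlapped, and the log2 fold change was 0.01 (standard error 0.08), with a sign that turned under 4 of the 13 other settings, down to -0.11 without MPC replicate 3. Per kilobase of exon, Ctse stood at 0.870, 1.20 and 1.26 times the level of Ctsd in the 3 MPC libraries. The same ratio was 0.00499, 0.00515 and 0.00771 in the MPC-PTX libraries.

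**Figure D1:**
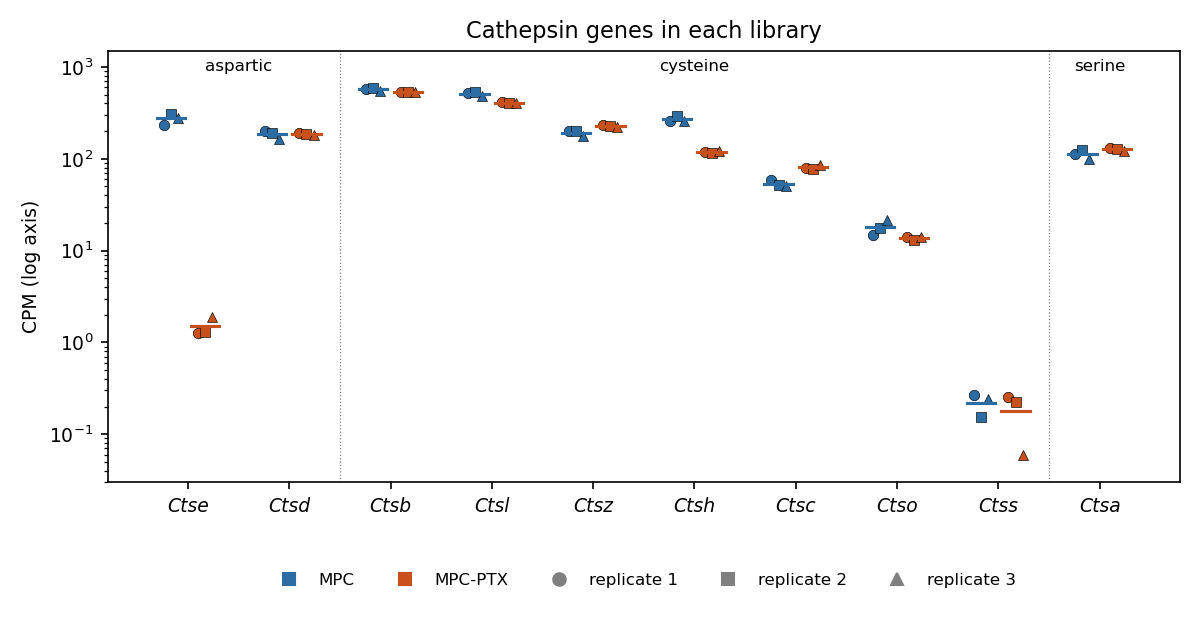
CPM of the 10 cathepsin genes in each library on a log axis, grouped by catalytic class; circles, squares and triangles are replicates 1, 2 and 3, and horizontal lines are means of 3 libraries. Ctse drops 184-fold in mean CPM, from between 233 and 310 CPM in MPC to between 1.28 and 1.90 CPM in MPC-PTX, while Ctsd stays between 166 and 199 CPM in all 6 libraries.

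Among the 10 genes, 9 had enough counts to be fitted. Of these 9, 2 were called higher (Ctsc and Ctsz), beside 14.1% of all tested genes, and 3 lower (Ctse, Ctsh and Ctsl), beside 15.6%. The study's own rule asks for a log2 fold change beyond 1 in size and a raw p below 0.05, and the study applied it to DESeq. Applied here to the edgeR fit instead, it gave 2 lower (Ctse and Ctsh), beside 4.34% of all tested genes, and 0 higher. The CPM ranges of the lines did not overlap for 7 of the 9, beside 46.9% of all tested genes, and they overlapped for Ctsd and Ctsa. Since the group was chosen on this contrast, nothing is read from these shares. The median log2 fold change of the 9 genes was -0.10, and -0.04 for the 8 genes without Ctse.

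The cysteine cathepsins held the second largest fall and the largest rise of the group. Ctsh (chr9:90054152-90076089, plus strand), an aminopeptidase known for processing surfactant protein in the lung, had 4881, 5718 and 5306 counts in MPC and 2750, 2592 and 2050 in MPC-PTX. In CPM these were 259, 295 and 255 against 117, 117 and 122, so every MPC-PTX library was well below every MPC library. Its mean CPM was 2.27-fold lower in MPC-PTX, at a log2 fold change of -1.18 (standard error 0.07).

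Ctsc (chr7:88278085-88310888, plus strand), the dipeptidyl peptidase that activates granule serine proteases in immune cells, had 1106, 993 and 1055 counts in MPC and 1838, 1730 and 1425 in MPC-PTX. Its 58.8, 51.2 and 50.7 CPM in MPC all lay below the 78.5, 78 and 84.7 CPM in MPC-PTX. The mean was 1.5-fold higher in MPC-PTX, at a log2 fold change of 0.59 (standard error 0.08). Ctsc and Ctsh thus went in opposite directions. The level of Ctsc per kilobase of exon was 0.155 ± 0.021 times that of Ctsh in MPC and 0.524 ± 0.012 times in MPC-PTX (SD, n = 3).

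Ctsb and Ctsl are general peptidases of the lysosome, and Ctsl was lower in MPC-PTX by more than Ctsb. Ctsb (chr14:63122462-63145923, plus strand) was at 571, 593 and 540 CPM in MPC and 529, 530 and 527 CPM in MPC-PTX, and its log2 fold change was -0.10 (standard error 0.06). Ctsl (chr13:64359337-64370890, minus strand) was at 517, 528 and 480 CPM in MPC and 416, 402 and 403 CPM in MPC-PTX. Every MPC-PTX library of Ctsl lay below every MPC library, at a log2 fold change of -0.32 (standard error 0.06). Ctsb was also called lower when MPC replicate 3 was left out (-0.19), and Ctsl was not called without MPC-PTX replicate 2 (-0.31). With the correction for GC content and length the value of Ctsl was -0.53.

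Ctsz (chr2:174427493-174439039, minus strand), a carboxypeptidase also known to bind integrins, was at 202, 200 and 177 CPM in MPC and 233, 227 and 223 CPM in MPC-PTX. Its log2 fold change was 0.24 (standard error 0.07), with the lines apart but MPC replicate 3 lowest, and it was 0.13 without that library. It was called higher in 5 of the 13 other settings, and its call was lost without MPC replicate 2 (0.26) and without MPC-PTX replicate 1, 2 or 3 (0.22, 0.24 and 0.25). The call was also lost with DESeq2 (0.20), its size factors (0.20), no filter (0.23) or at least 10 counts in every library (0.20).

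Ctso and Ctss were the low members. Ctso (chr3:81932601-81956725, plus strand), a cysteine cathepsin of broad expression, had 277, 338 and 450 counts in MPC and 326, 287 and 236 in MPC-PTX. Its 14.7, 17.4 and 21.6 CPM in MPC lay just above the 13.9, 12.9 and 14 CPM in MPC-PTX, at a log2 fold change of -0.40 (standard error 0.15). MPC replicate 3 was the highest library, and without it the value was -0.29. Ctso was called lower without MPC replicate 1 (-0.52) and with the GC and length correction (-0.48). Ctss (chr3:95526786-95556403, plus strand), the cathepsin of antigen-presenting cells, had 5, 3 and 5 counts in MPC and 6, 5 and 1 in MPC-PTX and was not tested. A set of 12 macrophage and leukocyte markers that share its cell types summed to between 1.34 and 1.73 CPM in MPC and between 1.62 and 1.90 CPM in MPC-PTX, and 11 of the 12 were under 10 counts in every library.

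**Figure D2:**
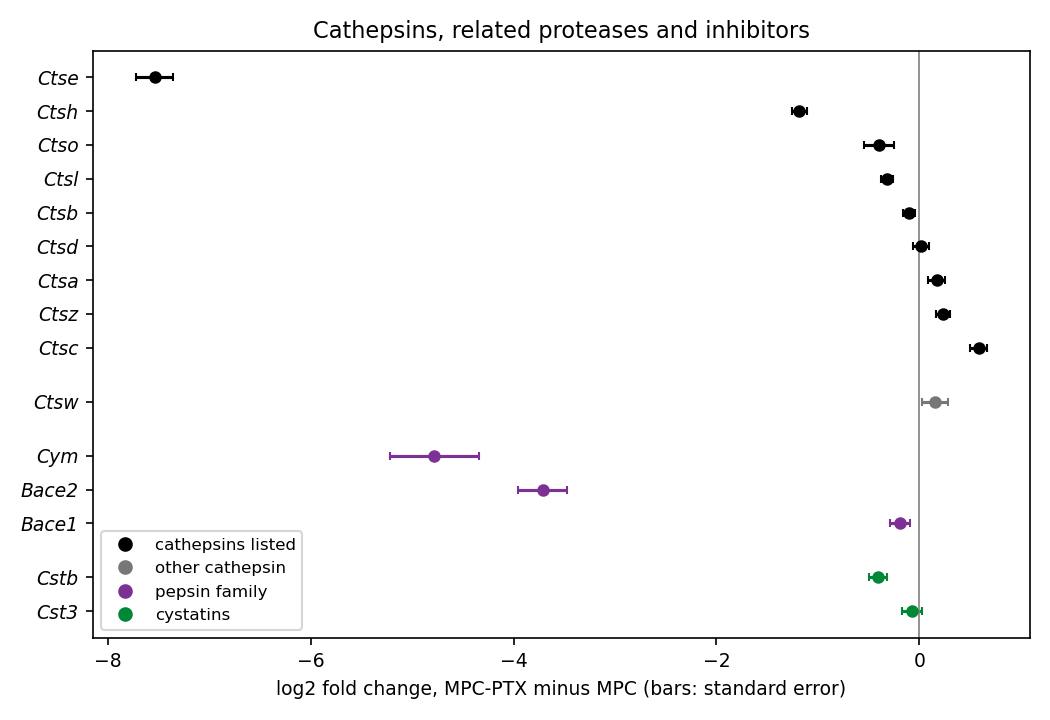
Log2 fold change (MPC-PTX minus MPC, 3 libraries per line) of the 9 tested cathepsin genes of the group and of the tested genes among other cathepsins, the pepsin family and cystatins; bars are standard errors. Ctse at -7.54 lies far from the other cathepsins, which run from -1.18 (Ctsh) to 0.59 (Ctsc), and Cym and Bace2 of the pepsin family lie between it and Ctsh.

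Ctsa (chr2:164832873-164841032, plus strand), the serine carboxypeptidase that also shields β-galactosidase and neuraminidase in the lysosome, was at 114, 123 and 100 CPM in MPC and 131, 127 and 121 CPM in MPC-PTX. The lines overlapped by MPC replicate 2, and the log2 fold change was 0.17 (standard error 0.09). It was 0.04 without MPC replicate 3, the lowest library, and Ctsa was called higher with the GC and length correction (0.20). Ctsa and Ctsd hold the letters TCACGTGA near a start. This run is the core of the element through which the factor TFEB and its relatives act on lysosomal genes, and the stretches around it are shown for that reason. They were taken from the promoter sequences of RefSeq (GRCm38.p6, 250 bases before to 50 after a start), in which 7 of the 10 members were found and Ctse, Ctsb and Ctsh were not. The capitals mark TCACGTGA, which reads the same on both strands.

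Ctsa, chr2:164833758-164833787, plus strand: tgTCACGTGAtgcagatgcTCACGTGAcca

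Ctsd, chr7:142387908-142387937, minus strand: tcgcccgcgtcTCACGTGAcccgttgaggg

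Positions are counted from the start, with the first base at the listed start as 1. In Ctsa the run began at -13 and at 5 from the second listed start, in a stretch that lies inside annotated transcripts which begin further upstream. In Ctsd it began at -99, and the longer annotated transcript of Ctsd covers that stretch too. TCACGTGA was held by 0.974% of the 32851 promoters, and 7.15% held the shorter CACGTG, which lies within it and is also palindromic. CACGTG alone was also found in Ctsl at -236 and once more in Ctsd at -245. A match is a description of the letters and not a binding site. Tfeb itself had 193, 149 and 132 counts in MPC and 265, 290 and 222 in MPC-PTX, and was higher by 0.63 on the log2 scale (standard error 0.18, adjusted p = 0.0368, edgeR quasi-likelihood test, Benjamini-Hochberg adjusted). That call was lost when MPC replicate 2 or any 1 of the 3 MPC-PTX libraries was left out, with values between 0.59 and 0.70.

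Levels between genes were compared as CPM per kilobase of exonic length. In MPC the order was Ctsz (134), Ctsb (93.9), Ctse (86.6), Ctsd (78.9), Ctsl (78.3), Ctsh (59.9), Ctsa (23.8), Ctsc (9.22), Ctso (3.50) and Ctss (0.162). The library ranges of Ctsb and Ctse, of Ctse and Ctsd and of Ctsd and Ctsl overlapped. By exonic length Ctse thus stood level with the main lysosomal cathepsins there. In MPC-PTX the order was Ctsz (158), Ctsb (87.4), Ctsd (79.6), Ctsl (62.7), Ctsa (26.8), Ctsh (26.4), Ctsc (13.8), Ctso (2.66), Ctse (0.472) and Ctss (0.133), and the ranges of Ctsa and Ctsh overlapped. Ctse thus went from the third place to the ninth, just above Ctss. Among 21902 genes with a length, Ctse ranked 558 in MPC and 10783 in MPC-PTX by this level, while Ctsb ranked 505 and 531 and Ctsd 631 and 588. The order depends on the length used. With the longest transcript Ctse was at 129 in MPC, and its MPC libraries all lay above those of Ctsd (87.2) and Ctsl (82.4). With the length of the principal transcript, a setting added after the exonic lengths had been seen, Ctsh came first in MPC (167) and just below Ctsd in MPC-PTX (73.4).

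Ctse made up 13.0%, 16.2% and 16.5% of the summed cathepsin level per kilobase in the MPC libraries and 0.0869%, 0.0903% and 0.133% in the MPC-PTX libraries. The sum of the other 9 genes was 482 ± 29.8 CPM per kilobase in MPC and 458 ± 6.59 in MPC-PTX (SD, n = 3), and the ranges overlapped. With principal transcript lengths the ranges of this sum did not overlap, at 605 to 681 in MPC and 564 to 575 in MPC-PTX. The mean share of Ctsz in the sum of all 10 was 23.6% in MPC and 34.5% in MPC-PTX, and the share of Ctsh was 10.5% and 5.76%. The share of Ctsl was 13.8% and 13.7%. These shares are fractions of one sum, so that a fall of Ctse raises the others.

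**Figure D3:**
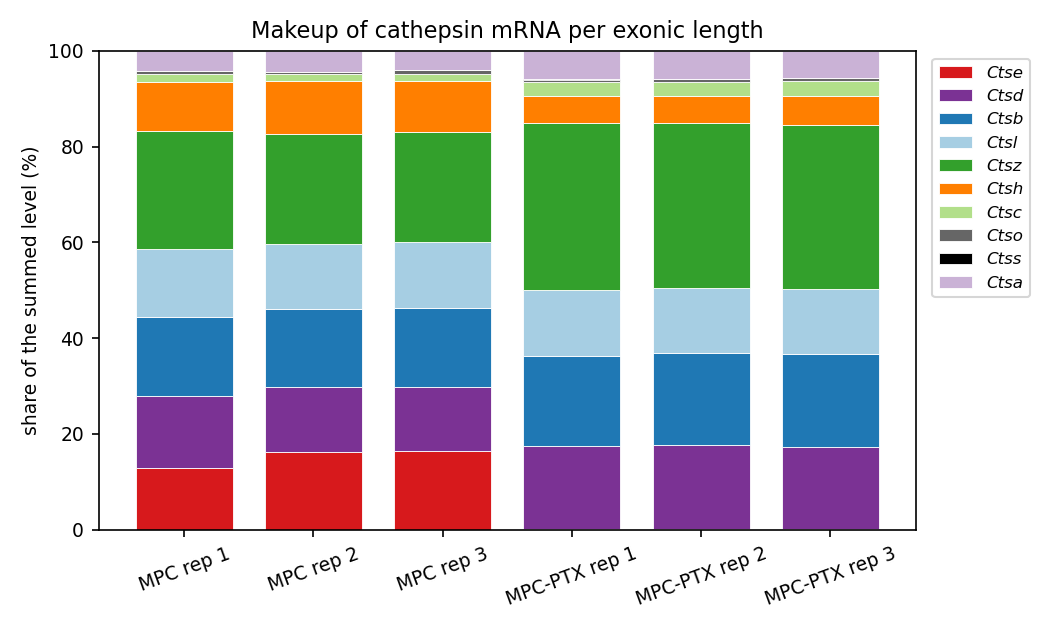
Share of each of the 10 cathepsin genes in their summed CPM per kilobase of exonic length, 1 bar per library. Ctse fills between 13.0% and 16.5% of the MPC bars and at most 0.133% of the MPC-PTX bars, where Ctsz fills between 34.2% and 34.8%.

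Among other genes of the pepsin family, the aspartic proteases to which Ctse and Ctsd belong, Bace2 and Cym fell and Bace1 did not pass the test. Bace2 (chr16:97356742-97442936), a membrane-bound protease that cleaves the pigment cell protein PMEL and the amyloid precursor, had 366, 612 and 522 counts in MPC and 43, 34 and 42 in MPC-PTX. It fell by 3.71 on the log2 scale (standard error 0.24, adjusted p = 8.36e-05, edgeR quasi-likelihood test, Benjamini-Hochberg adjusted). Cym (chr3:107211293-107221732), the gene of the milk-clotting enzyme chymosin, had 21, 31 and 36 counts in MPC and 1, 1 and 1 in MPC-PTX. The ratio of its counts per total count was 30.2, with an exact binomial 95% interval of 10.0 to 149 that covers counting error only. Cym passed the filter for low counts through its MPC libraries alone, so a fall was the only call it could get. Its call as lower (adjusted p = 0.000349 in the same edgeR fit with Benjamini-Hochberg adjustment) is therefore given as a description. Bace1, the close relative of Bace2, had between 1471 and 2394 counts (log2 fold change -0.19, standard error 0.10, adjusted p = 0.204, edgeR). It was called lower with the GC and length correction. Of the 7 listed relatives 3 were tested, 0 were higher and 2 were lower, beside 14.1% higher and 15.6% lower among all tested genes. With 3 genes tested, and Cym open to a fall alone, nothing is read from these counts about the family. Napsa had at most 7 counts in any library, and the pepsinogen genes Pgc and Pga5 and the renin gene Ren1 had 0 in all 6.

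Of 13 other cathepsin genes listed, 12 had too few counts to be tested. Ctsw, a cathepsin known from cytotoxic lymphocytes, was tested, with 159 to 183 counts in MPC and 154 to 244 in MPC-PTX, and it did not pass the test (log2 fold change 0.16, standard error 0.13, adjusted p = 0.388, edgeR). Ctsk, the collagen-degrading cathepsin of osteoclasts, had at most 7 counts and Ctsf at most 1. Ctsg, Ctsj, Ctsm, Ctsq, Ctsr, Ctsll3, Cts3, Cts6, Cts7 and Cts8 had 0 counts in every library. Of 16 listed inhibitors of cysteine cathepsins, the cytosolic cystatin B and the secreted cystatin C were tested. Cstb fell by 0.41 on the log2 scale (standard error 0.09, adjusted p = 0.0118, edgeR quasi-likelihood test, Benjamini-Hochberg adjusted), a call lost without MPC replicate 2 (-0.38), without MPC-PTX replicate 2 (-0.41) or without MPC-PTX replicate 3 (-0.39). Cst3 did not pass the test (-0.07, standard error 0.10, adjusted p = 0.602, edgeR).

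Of 39 other lysosomal hydrolases, all tested, 9 rose, 9 fell and 21 did not pass the test, beside 14.1% higher and 15.6% lower among all tested genes, so that nothing particular to the list is read from these counts. Their median log2 fold change was -0.01, beside -0.04 for the 8 cathepsins without Ctse and 0.04 for all tested genes. Their values ran from -0.86 for Galc, which degrades galactolipids, to 0.56 for Hexa, a subunit of β-hexosaminidase, so that none fell as far as Ctsh. Both ends were named after their values were seen. Scpep1 and Asah1, the highest of the list per length, did not pass the test (0.13 and -0.04, adjusted p = 0.120 and 0.585, edgeR). Lgmn, the asparaginyl endopeptidase that cleaves the precursors of cathepsins B, H and L on their way to the mature forms, was looked up for that role and fell by 0.60 (standard error 0.07, adjusted p = 0.00096, edgeR quasi-likelihood test, Benjamini-Hochberg adjusted). It had 3613, 4103 and 3839 counts in MPC and 3031, 2811 and 2229 in MPC-PTX.

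The counts of calls in the hydrolase list moved with single libraries. They were 5 higher and 4 lower without MPC replicate 2, and 4 higher with 4 or 5 lower when MPC-PTX replicate 1, 2 or 3 was left out. Without MPC replicate 3 they were 10 and 13. The lists below moved in the same way, and over the 6 fits with a library left out the calls ran from 2 to 6 higher and 2 to 5 lower for membrane proteins and cofactors, from 0 to 5 and 2 to 7 for the proton pump, from 0 to 3 and 0 to 4 for sorting, and from 0 to 3 higher for regulators.

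Of 18 lysosomal cofactors and membrane proteins tested, 6 rose and 3 fell, with a median of 0.02. The counts of this list and of the next 3 stand beside the same 14.1% and 15.6% of all tested genes, and nothing particular to a list is read from them. Laptm4a, a membrane protein of late endosomes, fell by 0.70 (adjusted p = 0.00028, edgeR quasi-likelihood test, Benjamini-Hochberg adjusted). Psap, the precursor of the saposins, which binds procathepsin D on its way to the lysosome, fell by 0.22 (adjusted p = 0.0404, edgeR), a call lost without MPC replicate 2 (-0.17) and without MPC-PTX replicate 1, 2 or 3 (-0.23, -0.21 and -0.22), with library size alone (-0.18) and with no filter (-0.23). Of 20 tested subunits of the V-ATPase, the pump that acidifies the lysosome, 4 rose and 3 fell. Atp6v1c2 and Atp6v0a4, forms with restricted expression, fell by 1.27 and 1.15 (adjusted p = 0.00019 and 0.00588, edgeR), whereas the broadly expressed Atp6v1f and Atp6v1g1 did not pass the test (-0.24 and 0.01, adjusted p = 0.0548 and 0.919, edgeR). Of 12 sorting genes 3 rose and 2 fell, the latter being M6pr, a mannose 6-phosphate receptor, and Sort1, sortilin (both -0.18, adjusted p = 0.0488 and 0.0446, edgeR). Of 6 tested regulators 2 rose, Tfeb and the GTPase gene Rragc (0.28, adjusted p = 0.0296, edgeR), and Tfe3 did not pass (-0.01, adjusted p = 0.938, edgeR). The calls of M6pr, Sort1 and Rragc were lost without MPC replicate 2 and without MPC-PTX replicate 1, 2 or 3. Those of M6pr and Sort1 were also lost with library size alone and with no filter, and that of Rragc with DESeq2, with its size factors and with at least 10 counts in every library.

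**Figure D4:**
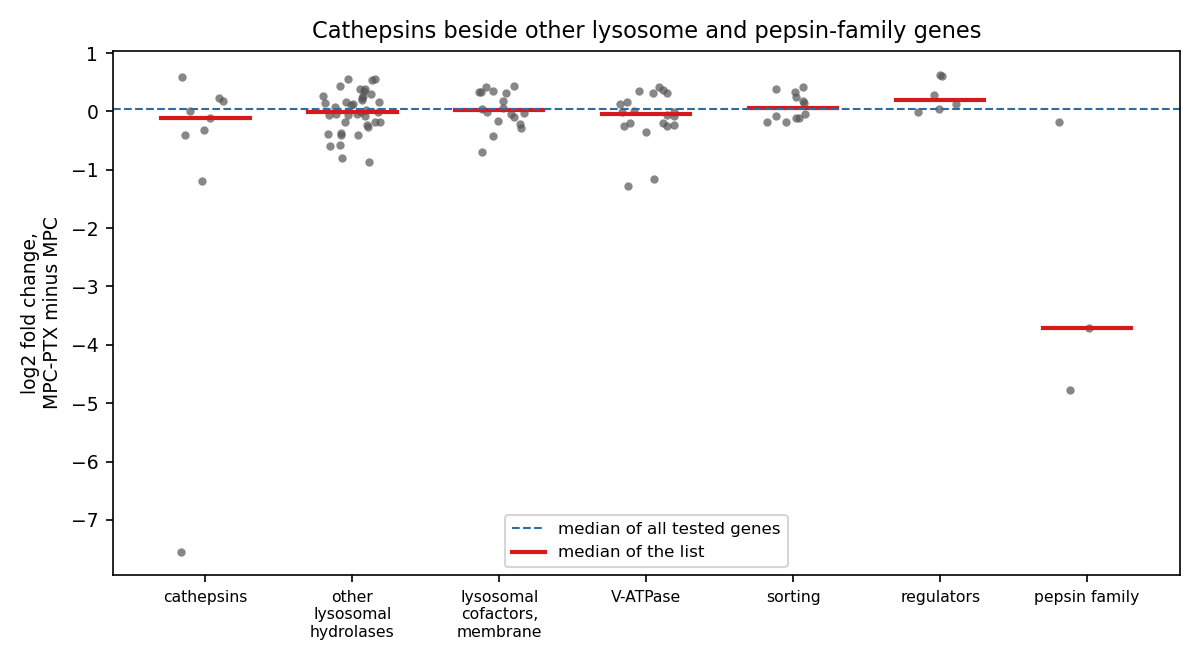
Log2 fold change (MPC-PTX minus MPC) of each tested gene of the cathepsin group, of 5 other lysosomal lists and of the pepsin family; red lines are list medians and the dashed line is the median of all tested genes at 0.04. The medians of the cathepsins and of the 5 lysosomal lists lie between -0.10 and 0.20, with Ctse at -7.54 far below them and Bace2 and Cym apart in the pepsin family.

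Ctse is also a marker of gastric pit cells, and other pit markers were lower in MPC-PTX. Of 11 listed pit markers in the table, Ctse not among them, 5 were tested and all 5 fell, beside 15.6% of all tested genes. Their log2 fold changes ran from -8.62 to -0.46 with a median of -3.08, and not all of the 5 are named here. Anxa10, the lowest, passed the filter for low counts through its MPC libraries alone. The other 6 were under 10 counts in every library, and the defining Tff1 and Gkn2 were at 0. The summed level of the 11 was between 513 and 638 CPM in MPC and between 243 and 248 CPM in MPC-PTX. Anxa10, an annexin of the gastric epithelium, had 1681, 2912 and 3059 counts in MPC and 10, 4 and 6 in MPC-PTX, and Psca had 3121, 3718 and 3420 against 1016, 994 and 743. Cldn18, the stomach tight junction claudin, fell by 0.46 (adjusted p = 0.00262, edgeR quasi-likelihood test, Benjamini-Hochberg adjusted), far less than Ctse. Of 9 gland markers 3 were tested and all 3 rose, by 0.45 to 1.68 on the log2 scale, beside 14.1% of all tested genes. The 9 summed to 60.6 to 63.2 CPM in MPC and 91.1 to 92.4 CPM in MPC-PTX, with Tff2 and Pgc at 0. All 7 general epithelial markers fell, with log2 fold changes from -1.13 to -0.50, beside the same 15.6% of all tested genes. Their sum went from 9400 to 10888 CPM in MPC to 5678 to 5866 CPM in MPC-PTX. Fibroblast markers summed to 9.62 to 10.5 and 8.37 to 9.74 CPM and endothelial markers to 2.63 to 3.03 and 2.34 to 2.85 CPM. The marker lists were chosen with earlier results of these data known, and nothing is read from their counts. The part of these markers in the result for Ctse was not tested.

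No tested gene next to Ctse on chromosome 1 fell nearly as far. Of 14 tested genes that start within 0.5 Mb of it, 2 rose and 3 fell, beside 14.1% higher and 15.6% lower among all tested genes. Their log2 fold changes ran from -0.99 to 0.34, with a median of 0.04. The nearest on either side, Fam72a and Rab7b, did not pass the test (0.03 and -0.50, adjusted p = 0.918 and 0.162, edgeR). Slc45a3, Mfsd4a and Cdk18 fell (-0.99, -0.86 and -0.46), and Ikbke and Srgap2 rose (0.34 and 0.33, with adjusted p = 0.0259 and 0.0149 by the edgeR quasi-likelihood test, Benjamini-Hochberg adjusted). Eif2d, Rassf5, Slc26a9, Slc41a1, Rab29, Nucks1 and Elk4 did not pass it, with values between 0.01 and 0.24. Within 2 Mb, 3 of 39 tested genes rose and 9 fell, beside the same 14.1% and 15.6%, with a range from -2.05 to 1.13. Nothing is read from these counts.

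**Figure D5:**
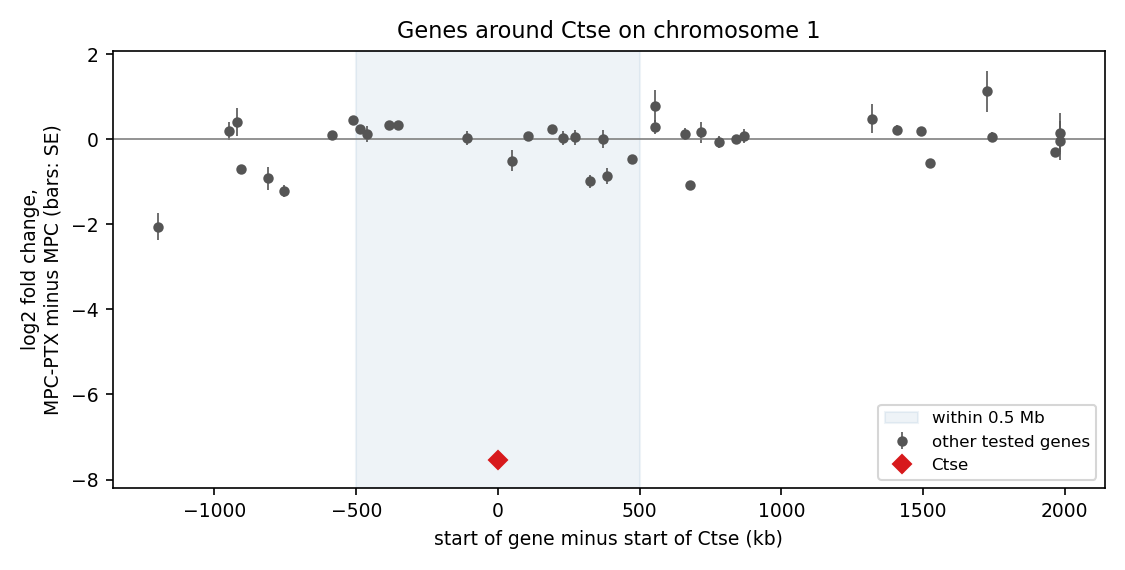
Log2 fold change (MPC-PTX minus MPC, 3 libraries per line) of tested genes by the distance of their start from the start of Ctse in kb; bars are standard errors and the shaded band is 0.5 Mb to either side. Ctse at -7.54 lies alone at the bottom, and the 14 genes in the band lie between -0.99 and 0.34.

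The profiles most like that of Ctse over the 6 libraries, by the Euclidean distance of log2 CPM centred on each gene's own mean, were those of Rec8 (distance 0.76), Vil1 (1.27), Anxa10 (1.28), Gramd1b (1.45) and Spon2 (1.84). Rec8, a meiotic cohesin subunit, had 330, 407 and 387 counts in MPC and 1, 0 and 0 in MPC-PTX. Vil1, the gene of the brush border protein villin, had 668, 1038 and 930 counts in MPC and 11, 7 and 6 in MPC-PTX. Like Ctse, both were well expressed in every MPC library and near 0 in every MPC-PTX library. Gramd1b, a sterol transfer protein, had 148, 222 and 250 counts against 1, 0 and 1, and Spon2, a secreted matrix protein, had 322, 380 and 331 against 5, 3 and 3. With 6 libraries of 2 lines, this likeness describes mainly the size of the difference between the lines in log2 CPM. The prior count of 2 in that measure makes differences of genes with low counts smaller. The log2 fold changes from the fit were -9.75 for Rec8, -6.84 for Vil1, -8.62 for Anxa10, -8.09 for Gramd1b and -6.59 for Spon2, so their order is not that of the distances. No other cathepsin was among these 5 genes.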

How the data were processed

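Poly-A selected RNA of 3 MPC and 3 MPC-PTX libraries was sequenced. The authors cleaned reads in fastp 0.22.0, aligned to the genome by HISAT2 and deposited raw read counts per gene and library, not normalized and not pooled. The genome release, annotation, counting tool and use of strand are not given in the sources used here, so counts of overlapping genes, Ctsd among them in the annotation used below, are uncertain.

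From the deposited counts, low genes were removed by filterByExpr (minimum count 10, grouped by line), libraries were scaled with TMM, and edgeR 4.0.16 (glmQLFit, robust, and glmQLFTest, R 4.3.3) was run on the 11795 left, with Benjamini-Hochberg adjustment over all of them. A call is an adjusted p below 0.05. CPM use the TMM-scaled library size, and the log2 CPM behind profile distances a prior count of 2. Groups came from the sample labels. The labels do not say that replicates were separate cultures, so p-values may measure technical spread only. No 2 libraries of a line had counts that agreed within sampling noise. The MPC libraries were much further apart, with a mean chi-square per gene of 14.7 to 60.0 between pairs, than the MPC-PTX libraries, with 1.83 to 3.33. The fit nevertheless shares its estimate of spread between the lines. GENCODE M21 (GRCm38) gave positions and lengths through the Ensembl identifier, and motifs came from the RefSeq promoter table. The fit was also run on simulated counts with 200 genes changed, no GC trend and the same spread in both lines. These data differ on each point, so nothing is read from that run.

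The members and the gene lists were chosen with earlier results of these data known. Named are the members, and other cathepsins and pepsin-family genes with 10 or more counts in a library. Also named are tested genes within 0.5 Mb of Ctse, the 5 genes with the nearest profile, Cdh1 and Trp53. Lists other than the marker lists add their genes past the threshold with an absolute log2 fold change above 1. They also add their highest pair per length. In the marker lists only some of the called genes are named, and no fixed rule picked them. Genes added for their known role or at the ends of a list were chosen after their values were seen. The alternatives were DESeq2 1.42.0, its size factors, library size alone, no filter, at least 10 counts in every library, a GC and length correction (loess span 0.3), a replicate block, omission of each single library and other transcript lengths. Protein sequences were not used here.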

Additional observations from a re-analysis of the deposited data

How the results depend on the processing

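Of 669 values recomputed under other settings, 539 were classed as the same, 103 as moved, 23 lost a call, 4 gained one and 0 changed sign after a call. The first class was loose and does not mean an equal count or sign. It took in the log2 fold change of Ctsd with DESeq2, -0.02 against 0.01 in the main fit. It also took in 2478 genes called higher with the GC and length correction, against 1668 in the main fit. The calls of Ctse, Ctsh and Ctsc held under all 13 alternatives. The median log2 fold change of the cathepsins was -0.21 with DESeq2 and -0.16 with no filter, fits that also included Ctss, and ran from -0.19 to -0.073 with each library left out. The number of cathepsins called higher was 1 with DESeq2, with DESeq2 size factors, with no filter and with at least 10 counts in every library, and ran from 1 to 2 with each library left out. In the pepsin family 1 gene was called lower with at least 10 counts in every library, since Cym was then not tested. The number was 3 with the GC and length correction and without MPC replicate 1. With each library left out, the genes called ran from 803 to 3020 higher and from 1077 to 3227 lower, both highest without MPC replicate 3, the hydrolases called from 4 to 10 higher and from 4 to 13 lower, and the median of the 14 genes around Ctse from -0.012 to 0.093. With the longest transcript as length, the share of Ctse was 18.4% in MPC and 0.133% in MPC-PTX, and the sum of the other 9 cathepsins was 574 and 530 CPM per kilobase. With the principal transcript, an alternative chosen after seeing the data, that sum was 648 and 568.

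Same-numbered libraries of the lines deviated together with correlations of 0.15, -0.02 and 0.17, so the numbers were not taken to pair them. With the replicate block 1787 genes were called higher and 1717 lower, against 1668 and 1841 without it. Among the genes named, the calls of Psap (-0.22), M6pr and Sort1 were lost with it. Where a line is left with fewer libraries, the spread is shared with the other line. Precision at low counts, as for Ctss and Cym, is limited by depth, and intervals cover counting error only.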
